A study of Mus musculus with 2 samples.

Results

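Small leucine-rich proteoglycans (SLRPs) are secreted matrix proteins that bind collagen fibrils through a leucine-rich core. Many of them, but not all, carry chondroitin, dermatan or keratan sulphate chains. They are known to set how thick collagen fibrils grow and how they are spaced, and some of them also bind growth factors and receptors. In the liver, hepatic stellate cells (HSCs), the mesenchymal cells that store vitamin A and produce scar collagen after injury, are a known source of them. The 8 SLRP genes described here were taken by name from the 31054 genes in the deposited tables. They are Dcn (decorin), Bgn (biglycan) and Aspn (asporin) of class I, Lum (lumican), Fmod (fibromodulin), Prelp (prolargin) and Omd (osteomodulin) of class II, and Ogn (osteoglycin or mimecan) of class III.

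The data were 2 single-cell libraries of HSC preparations, 1 per genotype, from livers of male mice on a C57BL/6 background that had received carbon tetrachloride (CCl4) for 4 weeks together with tamoxifen and diphtheria toxin. The p16-Alb-LRTD mice carried a p16-driven CreERT2, an albumin-driven DreERT2 and a Rosa26 reporter in which both recombinases are needed to switch on tdTomato and the diphtheria toxin receptor. Hepatocytes with high p16 were thereby eliminated. The p16-LRTD controls carried the same reporter and the p16-driven CreERT2 without the albumin-driven DreERT2, and received the same agents. The comparison asks how stellate cells differ once those hepatocytes are gone. The age of the mice and the number of mice in each library were not given in the sources used here, so each difference is one between 2 libraries, with no replicate check and no test. The study raises leaky expression of the toxin receptor from the reporter as a possible limit of this model.

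There were 11149 barcodes with 193746596 UMIs for p16-LRTD, and 8806 with 162219167 UMIs for p16-Alb-LRTD. The libraries shared 95 barcode sequences, of which 18 passed the cell filter in both. The filter left 9004 and 7416 barcodes, which were assigned by gates on summed marker UMIs per 10000 UMIs. Stellate cells (Lrat, Ecm1, Hgf and Reln together at 15 or more) numbered 7852 in p16-LRTD and 6621 in p16-Alb-LRTD, endothelial cells (Kdr, Stab2 and Ptprb at 8 or more) 430 and 283, and Kupffer cells, the resident macrophages (Clec4f, Cd5l, Vsig4 and Csf1r at 8 or more), 283 and 178. Barcodes passing more than 1 gate were kept apart. Stellate markers outside the gate (Colec11, Colec10, Rgs5, Des and Pdgfrb) summed to 7182 and 6110 CPM, UMIs scaled to a common total of all UMIs of the class, in the stellate cells, and to 86.1 to 141 CPM in the endothelial and Kupffer cells. Levels are CPM of UMIs summed over a class and library, intervals are 95% intervals for counting error only, and ratios are p16-Alb-LRTD over p16-LRTD. UMIs were counted at the 3' end, so they do not scale with transcript length.

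The 8 genes lie in 4 places of the mouse genome (GRCm38, GENCODE vM21). On chromosome 10, Dcn (97479609 to 97518143, plus strand) is followed after 47.0 kb by Lum (97565128 to 97572703, plus strand) and then by Kera and Epyc, related SLRP genes with 0 to 2 UMIs in the stellate cells of either library. On chromosome 13, Ecm2, Aspn (49544443 to 49567565), Omd (49582462 to 49592822) and Ogn (49608046 to 49624501) follow one another on the plus strand with gaps of 11.7 to 15.2 kb. All of them lie within Cenpp on the minus strand, whose own level in stellate cells was 9.37 and 5.07 CPM. Whether the counting used strand was not given in the sources used here. On chromosome 1, Prelp (133910304 to 133921414, minus strand) and Fmod (134037254 to 134048277, plus strand) are 116 kb apart, and Bgn lies alone on the X chromosome (73483602 to 73495933, plus strand). Neighbours did not always share a direction between the libraries. In the values below Dcn and Lum had opposite signs, as did Prelp and Fmod, while Omd and Ogn were both higher in p16-Alb-LRTD and Aspn beside them was not. With the same make-up of collagen strata in both libraries, described below, Lum (0.02) had the sign of Dcn (0.20), and Prelp (-0.10) that of Fmod (-0.27).

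Dcn, which binds collagen and transforming growth factor beta, was the most abundant transcript of all genes in the stellate cells of both libraries. In p16-LRTD its level was 18430 CPM (18407 to 18452), and in p16-Alb-LRTD 22186 CPM (22159 to 22212), so that 1.84% and 2.22% of all stellate UMIs came from this 1 gene. The log2 ratio was 0.27. The difference was spread over the cells rather than carried by a few. The median stellate cell had 186 Dcn UMIs per 10000 in p16-LRTD and 222 in p16-Alb-LRTD, the 10th percentiles were 117 and 142 and the 90th 265 and 314. The 10% of cells with the most Dcn held only 13.2% and 12.8% of its UMIs. After each cell was thinned to 5000 UMIs, all 7836 and 6614 stellate cells that were deep enough for this still had a Dcn UMI.

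Bgn, decorin's closest relative and a ligand of Toll-like receptors when released from matrix, ranked 22nd and 20th among all genes, with levels of 2961 CPM (p16-LRTD) and 2832 CPM (p16-Alb-LRTD, log2 ratio -0.06). Prelp, which anchors basement membranes to the matrix beneath, stood at 1286 and 1335 CPM (log2 ratio 0.05). These 2 genes differed little between the libraries. Lum, which keeps collagen fibrils thin and evenly spaced in the cornea, stood at 902 and 665 CPM (log2 ratio -0.44, interval -0.45 to -0.43). The signs of Bgn, Prelp and Lum each turned under 1 or 2 of the settings given at the end, that of Lum to 0.02 when both libraries were given the same make-up of collagen strata, as described with those strata. Lum varied more from cell to cell than Dcn, Bgn or Prelp. The 10% of cells with the most Lum held 31.7% and 29.7% of its UMIs, and its median per cell, 5.74 and 5.07 UMIs per 10000, differed less than its 90th percentile, 20.3 and 14.9.

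**Figure D1:**
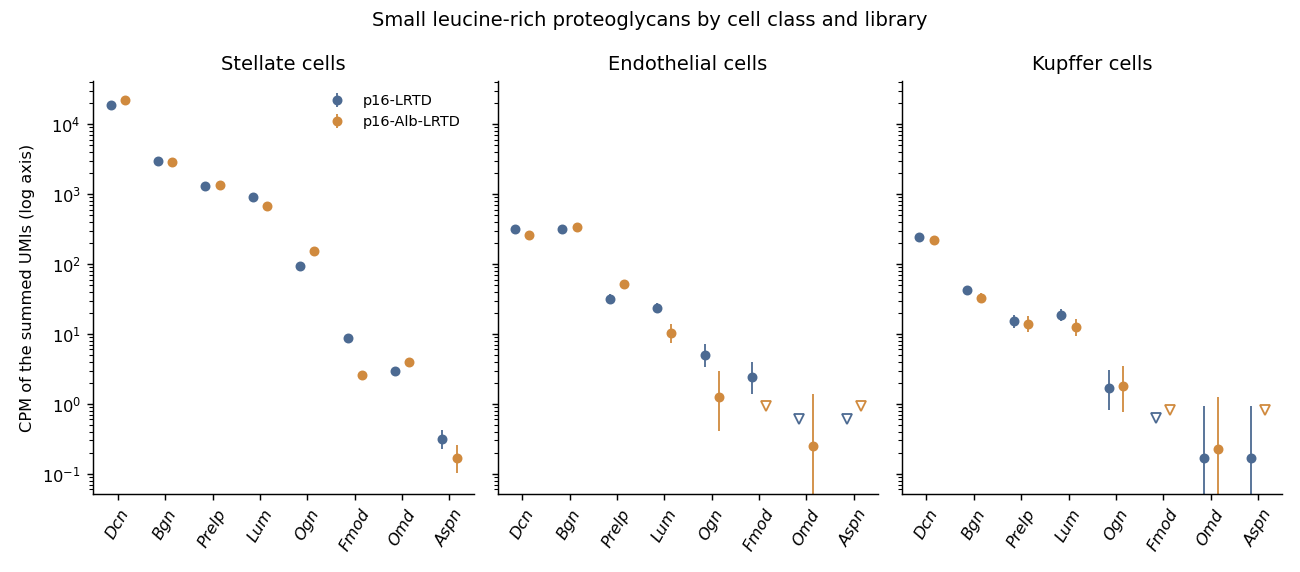
CPM of the 8 proteoglycan genes (log axis) in stellate, endothelial and Kupffer cells of the p16-LRTD (blue) and p16-Alb-LRTD (orange) libraries. Points are levels of the summed UMIs, bars are 95% Poisson intervals, and open triangles mark the upper limit of the interval for genes with no UMI. Dcn led in stellate cells of both libraries at 18430 and 22186 CPM, and Fmod showed the widest gap there, 8.71 against 2.58 CPM.

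Ogn, a proteoglycan of bone, cornea and vessel wall, had the highest ratio of the 8. In p16-LRTD its level was 94.7 CPM, and in p16-Alb-LRTD it was 152 CPM, from 13515 and 19015 UMIs (log2 ratio 0.68, interval 0.65 to 0.71). The share of cells with an Ogn UMI was higher as well, but such a share rises with the level and does not count the cells that express the gene. With cells thinned to 5000 UMIs, 31.4% of the control stellate cells and 44.7% of those from p16-Alb-LRTD mice had an Ogn UMI, against 1.08% and 1.13% of Kupffer cells, which should lack the gene. Without thinning the stellate shares were 59.5% and 73.4%. Median depths before thinning were 17024 and 18136 UMIs in stellate cells and 19514 and 25101 in Kupffer cells.

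Fmod, which binds collagen I and helps to order its crosslinking, went the opposite way and by more. Its level was 8.71 CPM from 1243 UMIs in p16-LRTD and 2.58 CPM from 323 UMIs in p16-Alb-LRTD, 3.38-fold lower (log2 ratio -1.75, interval -1.94 to -1.58). The thinned share of stellate cells with an Fmod UMI was 2.79% (219 of 7836) and 1.21% (80 of 6614), against 0 of 278 and 0 of 177 Kupffer cells, which at a floor of 3 counts allow a share of up to 1.08% and 1.69%, and by Clopper-Pearson intervals up to 1.32% and 2.06%. The p16-Alb-LRTD stellate share lay under these limits for its own library, so that at this depth it cannot be told from the Kupffer share. The unthinned stellate shares were 7.62% and 3.32%, with none among the Kupffer cells. At this level the share of cells with a UMI is set by depth and does not count the cells that express the gene.

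Omd and Aspn were near the limit of detection. Omd, a keratan sulphate proteoglycan of bone, had 418 and 490 UMIs, or 2.93 and 3.92 CPM (log2 ratio 0.42, interval 0.23 to 0.61). Aspn, which competes with decorin for a site on collagen, had 45 and 21 UMIs in all, or 0.32 and 0.17 CPM (log2 ratio -0.91, interval -1.73 to -0.13). Thinned shares were 1.48% and 2.04% for Omd, and 0.128% and 0.106% for Aspn.

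The median ratio of the group lay near the median of all genes. Of the 8 genes, 6 reached a mean of 5 CPM in stellate cells, the level asked of a gene before it was counted, and Omd and Aspn did not. Fmod reached it only through its level in p16-LRTD. Of the 6, 1 (Fmod) was at least 2-fold lower in p16-Alb-LRTD, beside 0.943% of the 10179 genes at that level, and 0 were at least 2-fold higher, beside 0.923%. That call was lost under 4 settings. With the same make-up of collagen strata in both libraries the log2 ratio of Fmod was -0.27, and without the cells highest for fibroblast and mesothelial markers -0.89. With gates at 2 times the values and with a mean of per-cell CPM it was still past 2-fold, at -1.66 and -1.54, but the mean level of Fmod, 4.55 and 4.97 CPM, was under the minimum of 5. The median log2 ratio of the 6 was -0.01, against -0.05 over all 10179 genes, whose 10th and 90th percentiles were -0.34 and 0.25. Lum, Fmod, Dcn and Ogn lay outside that range. All 8 genes together made up 2.37% of stellate UMIs in p16-LRTD and 2.72% in p16-Alb-LRTD, and decorin was 77.8% and 81.6% of them.

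The sequence just before the start of Fmod and of Ogn is shown because these genes had the lowest and the highest ratio of the 8. Each run is the 250 bases upstream of the RefSeq start (GRCm38.p6, plus strand), Fmod at chr1:134037004-134037253 and Ogn at chr13:49607765-49608014. Both strands were searched for 3 motifs. Capitals mark matches to TATAAA, which in Ogn overlap on opposite strands and begin 229 and 227 bases upstream of the start. Aspn, with a log2 ratio of -0.91, holds this motif too, 207 and 178 bases upstream of its start. Of 32851 upstream stretches of the same length, 12.4% hold that motif. Neither run holds TGANTCA, the AP-1 motif found in 6.75%, or TTCNNNGAA, the STAT motif found in 7.02%. The set of upstream sequences used here held 6 of the 8 genes and lacked Dcn and Lum.
Fmod: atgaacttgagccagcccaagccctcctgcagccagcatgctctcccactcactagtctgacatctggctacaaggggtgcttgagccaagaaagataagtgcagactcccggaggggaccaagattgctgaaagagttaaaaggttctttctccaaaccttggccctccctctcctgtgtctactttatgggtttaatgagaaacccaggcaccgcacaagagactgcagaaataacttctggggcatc
Ogn: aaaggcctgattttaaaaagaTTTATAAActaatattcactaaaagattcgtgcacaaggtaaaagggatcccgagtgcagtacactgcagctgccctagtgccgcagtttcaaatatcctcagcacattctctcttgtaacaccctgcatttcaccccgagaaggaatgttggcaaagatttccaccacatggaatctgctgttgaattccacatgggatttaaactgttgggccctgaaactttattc

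Fibrillar collagens, the ligands of these proteoglycans, were mostly lower in p16-Alb-LRTD. Of 11 fibrillar collagen genes, 8 reached 5 CPM in stellate cells and 5 of them were at least 2-fold lower, against 1 of the 6 SLRPs and 0.943% of all genes. Their median log2 ratio was -1.16. Col1a1, a chain of collagen I, stood at 1950 and 504 CPM and Col3a1, the chain of collagen III, at 4085 and 1343 CPM. Col5a3, a minor fibril-forming chain, had a log2 ratio of -1.56. The amount of proteoglycan transcript per collagen transcript therefore differed strongly. For every 1000 UMIs of Col1a1, Col1a2 and Col3a1, stellate cells had 2206 Dcn UMIs in p16-LRTD and 7780 in p16-Alb-LRTD, a 3.53-fold difference. The same measure was 4.70-fold higher for Ogn (11.3 and 53.3), 3.04-fold for Prelp (154 and 468), 2.8-fold for Bgn (355 and 993) and 2.16-fold for Lum (108 and 233). Fmod alone of the 6 genes at 5 CPM kept close to the collagens, with 1.04 and 0.905 UMIs per 1000 (0.868-fold, log2 ratio -0.20, interval -0.39 to -0.03).

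**Figure D2:**
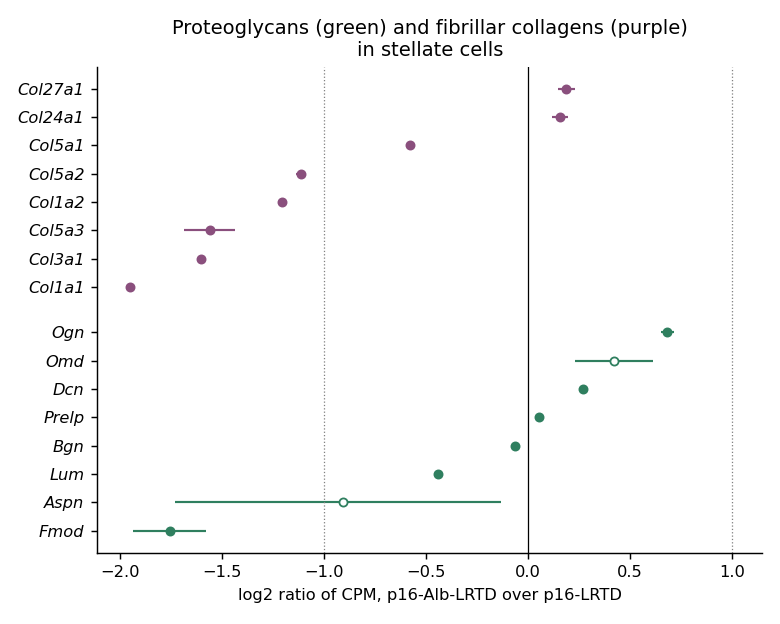
Log2 ratio of CPM in stellate cells, p16-Alb-LRTD over p16-LRTD, for the 8 proteoglycan genes (green) and the 8 fibrillar collagens at 5 CPM or more (purple). Bars are 95% intervals for counting error, open points are genes under 5 CPM, and dotted lines mark 2-fold. Fmod at -1.75 lies among the collagens, and Ogn at 0.68 is the highest of all genes shown.

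Cells were then divided into 4 strata of equal size by their summed Col1a1, Col1a2 and Col3a1 UMIs per 10000, with cuts at 14.3, 23.1 and 51.0 taken over both libraries. The highest stratum held 2891 of the p16-LRTD stellate cells (36.8%) and 11% of the p16-Alb-LRTD cells. These strata are ranges and not cell types, and 349 and 303 cells lay within 10% of the highest cut. Of the Fmod UMIs, 1201 of 1243 in p16-LRTD and 207 of 323 in p16-Alb-LRTD lay in the highest stratum, where its level was 57.0 times (29.9 to 125) that of the lowest stratum in p16-LRTD and 58.0 times (29.9 to 129) in p16-Alb-LRTD, each against 9 UMIs in the lowest stratum. Lum there was 3.96 and 2.79 times its level in the lowest stratum, Ogn 1.65 and 2.34 times, and Bgn 1.32 and 1.16 times. Dcn was 0.895 and 0.887 of its level in the lowest stratum, and Prelp 0.624 and 0.700. The order of these 6 genes by this measure was the same in both libraries.

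Within strata, the differences between the libraries took another form. Lum was lower in p16-Alb-LRTD over all stellate cells, but in the first 3 strata it was higher, at 438 against 361, 558 against 421 and 780 against 709 CPM, and only in the highest stratum was it lower, at 1223 against 1429 CPM. Fmod in the highest stratum was 14.6 CPM in p16-Alb-LRTD and 19.6 CPM in p16-LRTD (log2 ratio -0.43, interval -0.65 to -0.22), against -1.75 over all stellate cells. In the stratum below it the direction was the opposite, with 25 Fmod UMIs (0.837 CPM) in the control and 81 (2.19 CPM) in the p16-Alb-LRTD library. When both libraries were given the same shares of UMIs from the 4 strata, the log2 ratio was -0.27 for Fmod and 0.02 for Lum, while Ogn was at 0.90 and Dcn at 0.20. Ogn was higher in p16-Alb-LRTD in each stratum, with log2 ratios of 0.41, 0.76, 1.30 and 0.91, and so was Dcn, with 0.21, 0.24, 0.14 and 0.20. Prelp was lower in the first 3 strata (log2 ratios -0.08, -0.20 and -0.17) and higher in the highest (0.09). Within the highest stratum the libraries still differed in collagen, with 4203 and 2325 CPM of Col1a1.

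**Figure D3:**
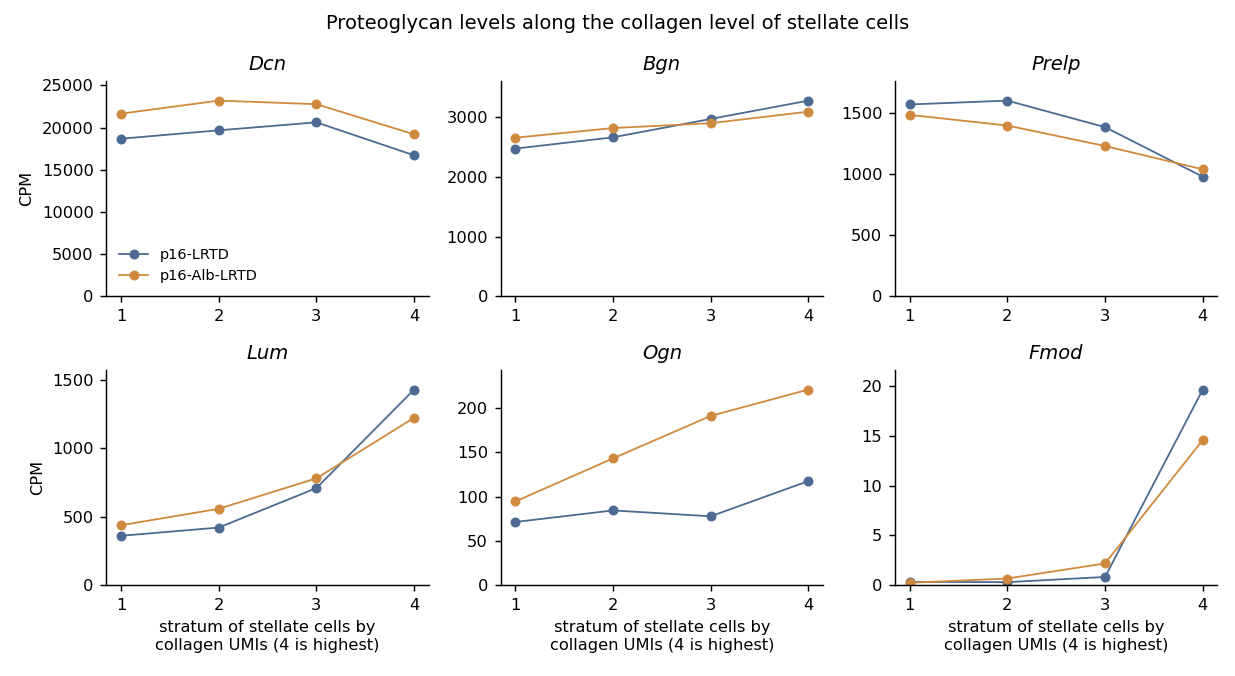
CPM of 6 proteoglycan genes in stellate cells divided into 4 strata by collagen UMIs per 10000 (stratum 4 is the highest), for p16-LRTD (blue) and p16-Alb-LRTD (orange), each axis starting at 0. Fmod is highest in stratum 4 (19.6 and 14.6 CPM), Lum climbs in both libraries, Prelp is lowest in stratum 4, and the Ogn line of p16-Alb-LRTD lies above that of p16-LRTD throughout.

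Correlations over single stellate cells are given as a description. They were taken per library on log-transformed UMIs per 10000 over 7852 and 6621 cells, which share a library and its depth. Lum followed Col1a1 with r of 0.63 in p16-LRTD and 0.40 in p16-Alb-LRTD, while Prelp ran against it with -0.50 and -0.32, and Dcn with -0.21 and -0.15. Lum and Prelp ran against each other (-0.38 and -0.30), and Dcn and Bgn went together (0.45 and 0.40). Likeness was ranked by the lower of the r values of the 2 libraries, over 6337 genes. Those most like Prelp were Sod3, an extracellular superoxide dismutase (0.64 and 0.65), Colec11, a stellate collectin (0.63 and 0.63), and Angptl6. Those most like Dcn were H2-D1 (0.61 and 0.56), Ecm1 (0.62 and 0.56), itself a gate gene, and Tgfbi. By the same rule Lum was most like Sparcl1 (0.55 and 0.51), Rpl27a (0.53 and 0.43) and Mmp2 (0.52 and 0.42), although in p16-LRTD alone its r was higher with Col1a1, Col1a2 and Col3a1 (0.63, 0.59 and 0.59). Bgn was most like Eef1a1, B2m and Serping1, and Ogn most like Adamts5, a protease that cuts proteoglycans (0.28 and 0.39), Pid1 and Fbln5.

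The genes also differed along other marker lists. For each list the stellate cells with the highest 10% of summed UMIs per 10000 over both libraries were set against the other stellate cells, except that for Mki67, Top2a and Cenpf the cells with any UMI were taken. Fmod stood high in cells with markers of portal fibroblasts and mesothelium (Dpt, Clec3b, Cd34, Thy1, Mfap4, Pi16, Msln, Upk3b, Upk1b and Wt1). There its level was 49.4 CPM in p16-LRTD and 15.7 in p16-Alb-LRTD, against 2.54 and 1.37 CPM in the other stellate cells, and these 886 and 562 cells held 74.7% and 51.4% of all Fmod UMIs. Without them the log2 ratio of Fmod was -0.89. All 6 portal fibroblast markers were detected in the stellate cells of both libraries, and their summed level was 76.7 CPM in the control and 36.9 CPM in p16-Alb-LRTD. All 4 mesothelial markers were detected, at 44.6 and 43.7 CPM, and all 3 smooth muscle markers, at 151 and 73.9 CPM. The part of such cells in the Fmod and Lum differences beyond these values was not tested, and fewer cells of a kind and less RNA per cell cannot be told apart in the summed counts.

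Cells with the highest Alcam and Svep1 were like those with fibroblast markers in Fmod, Lum and Prelp. They held 51.9 and 13.8 CPM of Fmod and 1853 and 1371 CPM of Lum, whereas Prelp was at 778 and 786 CPM there against 1347 and 1402 CPM in the other stellate cells. Cells with the highest Notch3 and Clstn2, genes of pericytes among others, differed from the other stellate cells the opposite way in Fmod, Lum and Prelp, but not in Dcn or Bgn, which were lower than in the other cells with either pair of genes. Lum was at 275 and 219 CPM in these 1189 and 259 cells, against 988 and 682 CPM in the others, and Prelp was at 1756 and 1798 CPM against 1222 and 1318 CPM. Dcn was highest with Tgfbi, Fcna and G0s2, at 25734 CPM in the control and 26395 CPM in p16-Alb-LRTD cells, with a log2 ratio of 0.04 against 0.27 over all stellate cells. That list marked 366 and 1082 cells. Ogn in cells with a UMI of Mki67, Top2a or Cenpf, genes of cell division, was at 59.7 and 155 CPM (log2 ratio 1.38). In the p16-LRTD library these 532 cells had less Ogn than the other stellate cells, 98.1 CPM, and in p16-Alb-LRTD the 232 cells were near the others, 152 CPM. As with the collagen strata, these are ranges of a score, and 48 to 864 cells of a library lay within 10% of a cut for the other 8 lists.

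**Figure D4:**
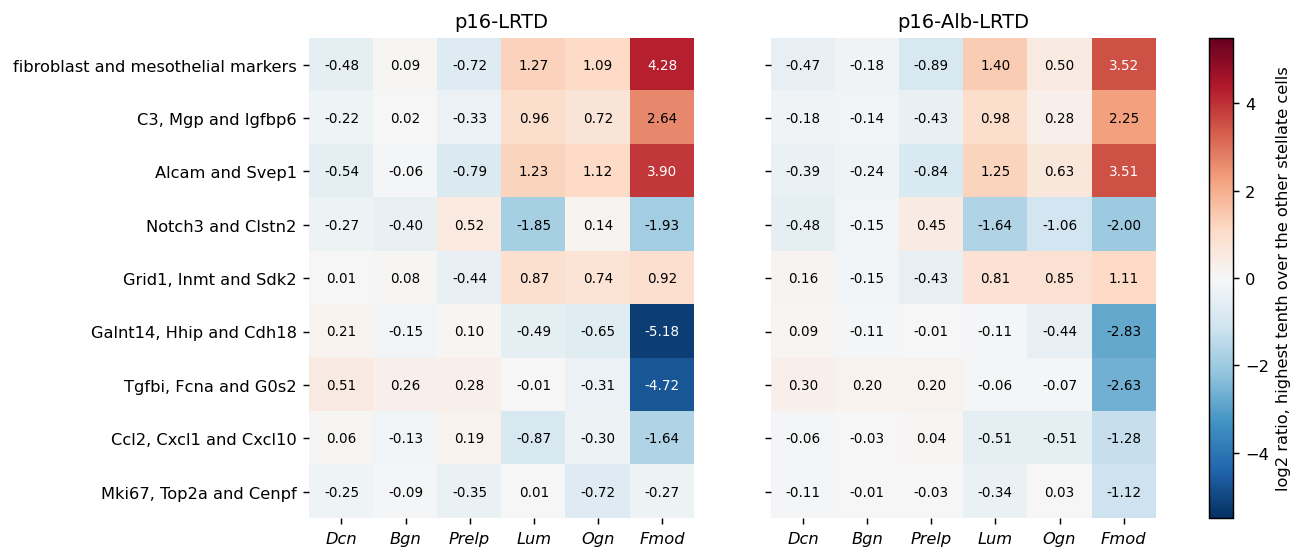
Log2 ratio of CPM between the 10% of stellate cells highest for a marker list (rows; any UMI for Mki67, Top2a and Cenpf) and the other stellate cells, for 6 proteoglycan genes (columns) in each library. Fmod and Lum are high and Prelp low with fibroblast and mesothelial markers and with Alcam and Svep1, and the signs of these 3 genes turn with Notch3 and Clstn2. Fmod values rest on 9 or fewer UMIs in the Galnt14 and Tgfbi rows of both libraries, and on 3 and 6 UMIs in the Notch3 and Mki67 rows of p16-Alb-LRTD.

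Endothelial and Kupffer cells had less of these transcripts than stellate cells. Endothelial Bgn stood out among the 4 genes at 5 CPM there, Dcn, Bgn, Lum and Prelp. Endothelial Fmod in p16-LRTD was at 28.0% of its stellate level, but from 15 UMIs in 3 barcodes. Dcn in endothelial and Kupffer cells was at most 1.73% of its stellate level, and Bgn in Kupffer cells 1.44% and 1.16%. Bgn in endothelial cells was 10.7% of its stellate level in p16-LRTD and 12.0% in p16-Alb-LRTD, at 317 and 339 CPM. For every 100 Dcn UMIs, stellate cells had 16.1 and 12.8 Bgn UMIs and Kupffer cells 17.6 (15.4 to 20.2) and 14.8 (12.4 to 17.6). Endothelial cells had 99.3 (93.2 to 106) and 132 (121 to 143). Colec11, a gene of stellate cells, did not share this pattern, with 17.5 and 12.3 UMIs per 100 Dcn UMIs in stellate, 16.6 and 14.8 in endothelial and 15.8 and 13.1 in Kupffer cells. Rgs5, another gene of stellate cells, stood higher outside them. It was at 12.5 and 8.68 per 100 Dcn UMIs in stellate, 15.2 and 16.3 in endothelial and 15.3 and 18.1 in Kupffer cells. Collagens were also high per Dcn UMI in endothelial cells of p16-LRTD, where Col1a1 was at 67.4 UMIs per 100 Dcn UMIs in endothelial and 10.6 in stellate cells, Col1a2 at 62.0 and 12.6 and Col3a1 at 69.5 and 22.2. These values rested on few barcodes, since 3 of 430 held 1206 of the 1323 endothelial Col1a1 UMIs. Without the 10 endothelial barcodes with the most collagen, a choice made after seeing the data, they were 7.71, 10.2 and 30.4. In p16-Alb-LRTD Col1a1 was at 1.95 and 2.27, Col1a2 at 4.38 and 4.53 and Col3a1 at 9.83 and 6.06. A Bgn UMI was found in 71.3% and 79.2% of endothelial cells thinned to 5000 UMIs, against 19.8% and 15.8% of Kupffer cells, although Dcn was found in 61.5% and 62.5% of the former and 64.7% and 67.2% of the latter.

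Within endothelial cells, Dcn was at 319 CPM for p16-LRTD and at 258 CPM for p16-Alb-LRTD (log2 ratio -0.31), Lum 23.7 and 10.3 CPM (log2 ratio -1.20, interval -1.74 to -0.70) and Prelp 32.0 and 51.7 CPM (log2 ratio 0.69). Of the 8 genes, 4 reached 5 CPM on average and 1 (Lum) was at least 2-fold lower, beside 3.65% of 9858 genes, with 0 at least 2-fold higher, beside 2%. These directions depended on the gates. With barcodes of several gates kept, Dcn was at 0.72 and Lum at 0.11 on the log2 scale, both opposite in sign. With gates at 2 times the values Dcn was at -1.02, Lum at -2.05, and Prelp and Bgn were below 0, at -0.21 and -0.13. With no cell filter Prelp was at 0.34. The Dcn and Lum values also rested on few barcodes. Of the 430 endothelial barcodes in the p16-LRTD library, the 10 with the most collagen held all but 90 of the 1323 Col1a1 UMIs and all but 1168 of the 1962 Dcn UMIs, and the 15 Fmod UMIs lay in 3 barcodes. Leaving out the 10 barcodes with the most collagen in each library, a choice made after seeing the data, gave 198 and 238 CPM of Dcn, and its log2 ratio changed sign to 0.26 (0.14 to 0.39). Lum then stood at 13.6 and 10.0 CPM (log2 ratio -0.44, interval -1.04 to 0.14), under 2-fold and no longer clear of 0 in counting error. Bgn was at 286 and 343 CPM, and its ratio to Dcn was 144 UMIs per 100 in both libraries. Prelp was at 18.3 and 49.6 CPM (log2 ratio 1.44). It was also 20.8 per 100 Dcn UMIs in p16-Alb-LRTD and 9.25 in p16-LRTD.

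**Figure D5:**
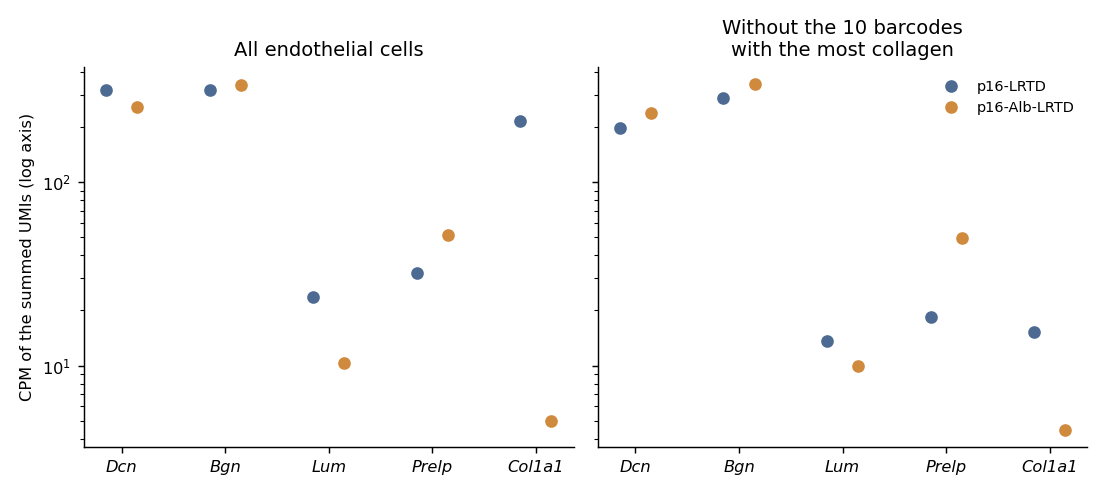
CPM (log axis) of Dcn, Bgn, Lum, Prelp and Col1a1 in all endothelial cells (left) and without the 10 barcodes with the most collagen UMIs in each library (right), for p16-LRTD (blue) and p16-Alb-LRTD (orange). Dcn is lower in p16-Alb-LRTD on the left (319 and 258 CPM) and higher on the right (198 and 238 CPM), and Bgn is above Dcn on the right in both libraries.

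In Kupffer cells, Dcn stood at 241 and 222 CPM, Bgn at 42.6 and 32.9, Lum at 18.7 and 12.5 and Prelp at 15.3 and 14.1 CPM. The log2 ratios were -0.12 (-0.24 to -0.0021), -0.37 (-0.68 to -0.07), -0.58 (-1.07 to -0.10) and -0.12 (-0.61 to 0.36), that of Prelp not clear of 0 in counting error, and 0 of the 4 genes at 5 CPM were 2-fold lower or higher, beside 1.87% and 1.7% of 9514 genes. The size of these differences depended on the gates too. With barcodes of several gates kept the log2 ratios were -0.70, -1.16, -1.16 and -1.15, the last 3 past 2-fold, and with gates at 2 times the values -0.67, -0.94, -1.43 and -0.76, with Lum past 2-fold. Ogn had 10 and 8 UMIs there, and Fmod none. For every 100 Dcn UMIs, Kupffer cells had 6.35 and 6.34 Prelp UMIs, against 6.98 and 6.02 in stellate cells, and 7.74 (6.32 to 9.39) and 5.64 (4.23 to 7.38) Lum UMIs, against 4.90 and 3.00. How much of this is RNA from stellate cells was not tested. A further 194 and 113 barcodes passed no gate and held markers of several kinds, among them portal fibroblast (461 and 262 CPM), mesothelial (580 and 380 CPM) and hepatocyte genes (1088 and 433 CPM). Fmod was at 26.9 and 15.8 CPM and Lum at 763 and 448 CPM in these barcodes.

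Other genes of the pathway were taken from lists. Of 10 other SLRP genes, 4 reached 5 CPM and 0 were 2-fold apart, beside 0.943% of all genes lower and 0.923% higher. Their median log2 ratio was 0.12. Ecm2, the neighbour of Aspn, was at 18.2 and 23.2 CPM, and Optc (opticin), the neighbour of Prelp, at 5.70 and 6.62 CPM. Of 29 genes for the building and sulphation of the chains, 23 reached 5 CPM, with a median of -0.13. Of these, 1 was at least 2-fold higher and 0 were at least 2-fold lower, beside 0.923% and 0.943% of all genes. The 1 was Papss2, which makes the sulphate donor, at 277 and 606 CPM (log2 ratio 1.13, interval 1.11 to 1.15). Chsy3, a chondroitin synthase, was at 47.5 and 76.8 CPM. Of 19 other proteoglycans, 11 reached 5 CPM and 2 were at least 2-fold lower, beside 0.943% of all genes, with a median of -0.32. They were Sdc1 (syndecan-1, a cell-surface proteoglycan), at 13.0 and 4.09 CPM, and Vcan (versican, a large matrix proteoglycan), at 10.7 and 4.53 CPM. Both reached the mean of 5 CPM through their p16-LRTD levels.

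Of 11 proteases known to cut SLRPs, 7 reached 5 CPM and 0 were 2-fold apart, beside 0.943% of all genes lower and 0.923% higher. Their median was -0.07. Of 16 receptors and growth factors that bind them, 11 reached 5 CPM and 1 (Itga2, a subunit of a collagen receptor) was at least 2-fold lower, at 8.23 and 3.96 CPM, beside 0.943% of all genes, and it too reached the minimum through its p16-LRTD level. The median was 0.001. Egfr, a receptor that decorin binds, was at 145 and 206 CPM and Tlr2, a receptor for biglycan, at 4.51 and 6.03 CPM. Genes that respond to the dissociation of tissue also differed between the libraries. All 12 of a list that includes Fos, Jun and Hspa1b were higher in p16-Alb-LRTD stellate cells, with a median log2 ratio of 0.64, and 1 of them (Hspa1b) by 2-fold or more, beside 0.923% of all genes. Hspa1b was at 4.63 and 15.3 CPM and reached the minimum through its p16-Alb-LRTD level. Their part in the differences above was not tested.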

How the data were processed

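Liver digests of both genotypes were enriched for HSCs on a Nycodenz gradient and made into 10x Genomics 3' v3.1 libraries, 1 per genotype. The deposited values are whole UMI counts for each gene and barcode, not normalised, which the authors obtained from CellRanger 7.0.1 with mm10. Whether intronic reads were counted was not given in the sources used here. The features matched GENCODE vM21 by identifier for 30934 of 31054 entries and for all 8 SLRP genes.

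From there on, barcodes with over 5% mitochondrial UMIs, under 2000 or over 7000 genes, or over 50000 UMIs were left out, as in the study. The integration and clustering of the study were not repeated. Barcodes passing exactly 1 gate formed the classes. No doublet caller was run, so that doublets were limited by the upper limits and by setting apart barcodes of several gates. UMIs were summed per class and library (Python 3.11.15, numpy 2.4.6, scipy 1.17.1, pandas 2.3.3) and scaled to CPM. The 95% intervals are exact Poisson for levels, exact conditional for ratios and Clopper-Pearson for shares. They cover counting error and not the spread among cells, mice or preparations. With 1 library per genotype no test was made. A gene was called at 2-fold among genes of at least 5 CPM on average. Shares of cells were taken after thinning each cell to 5000 UMIs, which left out 16 and 7 stellate cells. Where a class had no UMI of a gene, 3 counts served as the floor.

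The named genes are all 8 SLRPs, at most the 4 highest and 4 lowest ratios of the pathway lists together with genes whose role a sentence needs, and the 3 genes most like each SLRP at 20 CPM or more. Vcan, Itga2 and Hspa1b fall outside this rule and were named after their values were seen. The SLRP genes, the gates and the lists were chosen with earlier results of these data known. Alternatives changed the cell filter, gates, scaling (edgeR 4.0.16 TMM, DESeq2 1.42.0 median of ratios), weighting of cells, depth range, collagen strata and minimum level. The ratio intervals were tried on simulated library sums with Poisson error only, which is the error they assume. That trial could not show the effect of UMIs gathered in few cells. The thinning was tried on simulated cells of equal counts.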

Additional observations from a re-analysis of the deposited data

Results flagged for a closer look

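Dcn had opposite directions in different cell classes. Its log2 ratio was 0.27 in stellate cells, -0.31 in endothelial cells and -0.12 in Kupffer cells, each with a counting interval clear of 0. The difference between the classes was not tested, since there was 1 library per genotype. Without the 10 endothelial barcodes with the most collagen in each library, the endothelial value was 0.26, and with barcodes of several gates kept it was 0.72.

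Ogn likewise had a log2 ratio of 0.68 in stellate cells and -2.00 in endothelial cells, and this difference was not tested either. The endothelial value rests on 31 UMIs in 8 barcodes of p16-LRTD, 24 of them in 3 barcodes, and on 5 UMIs in p16-Alb-LRTD. Without the same 10 barcodes it was 6 and 5 UMIs.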

How the results depend on the processing

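No paired analysis was possible because there was 1 library of each genotype. Of 158 values recomputed under alternatives, 88 moved beyond the counting interval of the value reported and 1 changed sign from a value past 2-fold. Counting intervals are narrow at this depth, so most moves were small. The number of SLRPs at least 2-fold lower in stellate cells was 1, and became 0 with gates at 2 times the values, with a mean of per-cell CPM, with pooled shares of the collagen strata and without the cells highest for fibroblast and mesothelial markers. In the first and second of these Fmod was still past 2-fold (-1.66 and -1.54) but under the 5 CPM minimum, and in the other two its ratio was -0.27 and -0.89. The log2 ratio of Fmod stayed below 0 in all 10 alternatives, from -1.80 to -0.27, as Dcn (0.20 to 0.31) and Ogn (0.66 to 0.90) stayed above it. Omd (0.38 to 0.48) and Aspn (-1.17 to -0.12) also kept their sign. Bgn changed sign in 1 alternative (0.0047, pooled collagen strata), Lum in 1 (0.02, the same) and Prelp in 2 (-0.10, the same, and -0.01, mean of per-cell CPM). Why the values moved was not tested. The median log2 ratio of the SLRPs, -0.0052 as reported, was 0.0103 with no cell filter, 0.0494 with gates at 2 times the values, 0.0391 with TMM scaling and 0.0415 with median-of-ratios scaling, -0.0207 in cells of 10000 to 30000 UMIs, 0.0119 with pooled collagen strata, 0.0345 without the fibroblast and mesothelial marker cells and 0.0542 with a minimum of 1 CPM. The scalings raised every ratio by 0.04 and 0.05.

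Thinned shares follow depth. At 3000 UMIs, stellate cells of p16-LRTD and p16-Alb-LRTD with a Lum UMI were 72.9% and 70.5%, with Fmod 1.88% and 0.574%, and with Ogn 21.5% and 31.6%. With no thinning they were 93.7% and 93.8%, 7.62% and 3.32%, and 59.5% and 73.4%. With no cell filter Fmod in p16-Alb-LRTD was 0.935%. The small classes depended most on the gates. With barcodes of several gates kept, endothelial log2 ratios were 0.72 for Dcn, 0.42 for Bgn and 0.11 for Lum, the last opposite in sign to the -1.20 reported, and Kupffer ratios were -0.70 for Dcn, -1.16 for Bgn, -1.16 for Lum and -1.15 for Prelp. With gates at 2 times the values the endothelial ratios of Dcn, Bgn, Lum and Prelp were -1.02, -0.13, -2.05 and -0.21, and the Kupffer ratios -0.67, -0.94, -1.43 and -0.76. With no cell filter Prelp in endothelial cells was 0.34. Without the 10 endothelial barcodes with the most collagen, added after seeing the data, the endothelial ratios were 0.26, 0.26, -0.44 and 1.44. Relative to collagen, the log2 ratios of 1.82 for Dcn, 1.11 for Lum and 2.23 for Ogn became 1.87, 1.13 and 2.30 with no cell filter and 1.64, 1.07 and 2.06 with a mean of per-cell CPM. The endothelial and Kupffer values are limited by their cell numbers, and Aspn and Omd by their few UMIs.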
